A study of Mus musculus with 2 samples.

Results

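Peroxisome genes were examined in mouse intestinal stem cells: 13 Pex genes, which build the organelle and import its proteins, and 32 genes of its enzymes and membrane proteins. The 45 members were taken by symbol from the 45706 genes listed in the files, and all 45 were found. The cells came from mice of the strain Lgr5-EGFP-IRES-creERT2, 4 months old, in which the Lgr5 locus drives a green fluorescent protein and an inducible Cre recombinase. Cells with high GFP were sorted. The fed group (standard chow, ad libitum) and the fasted group are each represented by 1 library, and both carry the same reporter allele. The labels do not give the length of the fast, the sex or number of mice, or whether animals were pooled. The comparison asks how fasting changes gene expression in these cells.

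Peroxisomes are small organelles bounded by a single membrane. They shorten very long, branched and unsaturated fatty acids that mitochondria handle poorly, make the first intermediates of ether lipids, and break down the hydrogen peroxide that their oxidases release. Their enzymes are made in the cytosol and imported already folded by the Pex machinery. Many of the enzyme genes are switched on by peroxisome proliferator-activated receptors (PPARs), a family of nuclear receptors that respond to fatty acids. In the intestine the organelle is well described in absorptive enterocytes, the cells that take up dietary fat.

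The fed library held 6985316 counts and the fasted library 5020056, so that 1 count equalled 0.143 and 0.199 counts per 1000000 (CPM). Ratios are given as fasted over fed, with counts first divided by a size factor per library, and each interval is an exact 95% Clopper-Pearson interval. The intervals cover counting error only. With 1 library per group there is no replicate error and no test, and all differences describe these 2 libraries. Measured genes had a mean of 1 CPM or more and 20 or more counts in sum. A gene is called higher or lower where its ratio reached 2-fold and the interval did not contain 1. Of the members 43 were measured; Abcd2 and Hao2 were not. Of the defining stem cell markers, Lgr5 had 484 CPM (fed) and 340 CPM (fasted) and Olfm4 had 14373 and 8257 CPM, and all 6 epithelial markers examined were measured.

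In the fasted cells, the enzyme genes Eci2, Ech1, Ehhadh and Amacr, the dehydrogenase-like Hsdl2 and the membrane protein Pxmp4 were higher, as were the division factor Pex11a and, on few reads, the thiolase gene Acaa1b, while Far1 of ether lipid synthesis was lower. The genes of protein import stayed close to their fed level. Of all 43 measured members, 8 were higher, 1 was lower and 34 were neither. Among all 12026 measured genes, 2.51% were higher and 1.91% were lower. The median log2 ratio of the members was 0.41 (1.33-fold), against -0.018 for all measured genes, and 35 members had a positive ratio, where 47.9% of all measured genes did. In 7 of 30 enzyme and membrane protein genes the level was higher and in 1 it was lower, with a median of 0.51 (1.43-fold). In 1 of 13 Pex genes, Pex11a, it was higher and in 0 it was lower, with a median of 0.17 (1.12-fold). The interval lay above a ratio of 1 for 21 of the 30 enzyme and membrane protein genes and for 4 of the 13 Pex genes, compared with 16.7% of all measured genes. It lay below 1 for 1 gene of each class, compared with 19.2% of all measured genes. At a threshold of 1.5-fold 13 members were higher and 1 was lower, against 5.11% and 5.05% of all measured genes, and at 3-fold 6 were higher and 0 were lower, against 1.03% and 0.732%. The difference between the classes was not tested.

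**Figure D1:**
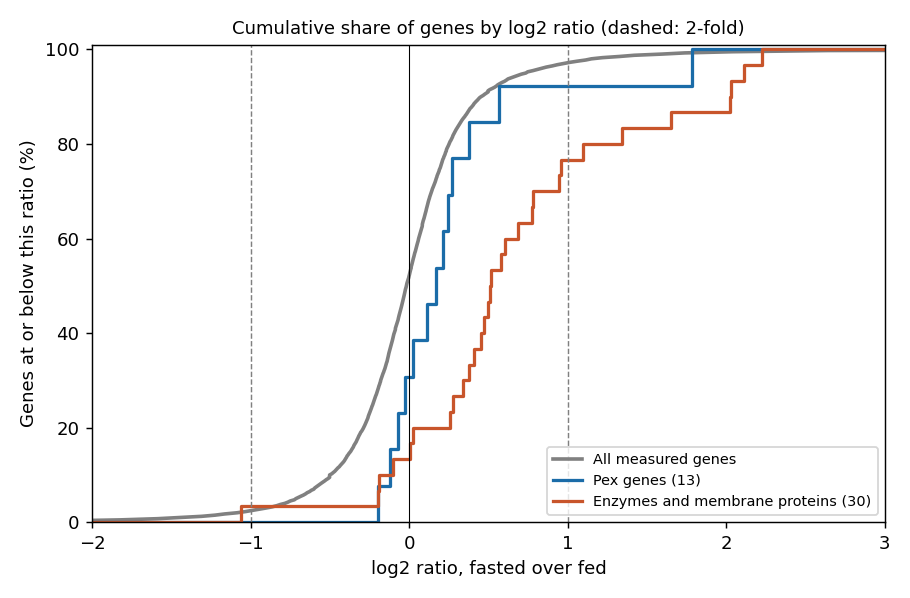
Cumulative share of genes (vertical axis, %) at or below each log2 ratio of fasted over fed (horizontal axis), for the 13 Pex genes, the 30 measured enzyme and membrane protein genes and all measured genes; the dashed lines mark 2-fold. The curve of the enzymes lies to the right of that of all genes over most of its course, while the Pex curve leaves it by less, with Pex11a alone at 1.78.

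Pex11a was the one member of the biogenesis machinery past 2-fold. Its product elongates and divides the peroxisome membrane. The gene (chromosome 7, 79735957 to 79743131, GRCm38) had 180 fed and 439 fasted counts, so the fasted library was the higher one. This corresponded to 3.44-fold, a log2 ratio of 1.78 (1.53 to 2.04), and rank 85 from the highest of all measured genes. Pex11g, the other division factor of the list, had 104 and 70 counts, with a log2 ratio of -0.073 (-0.53 to 0.38), so that the intervals of these paralogs did not overlap.

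The 12 Pex genes other than Pex11a all stayed within 1.5-fold, with a median log2 ratio of 0.14. Pex5 and Pex7 encode the receptors that carry enzymes from the cytosol, Pex5 for the common C-terminal signal and Pex7 for an N-terminal one. Pex5 had 537 and 427 counts (log2 ratio 0.17, -0.020 to 0.35) and Pex7 had 297 and 254 (0.27, 0.025 to 0.52). The docking complex, through which loaded receptors reach the membrane, was level between the libraries. Pex13 had 326 and 227 counts, with a log2 ratio of -0.024 (-0.28 to 0.22), and Pex14 had 121 and 87 counts and 0.022 (-0.39 to 0.43). Pex2 and Pex10 are subunits of the ubiquitin ligase that marks the receptors for recycling. Their log2 ratios were 0.21 (-0.0056 to 0.43) and 0.24 (-0.11 to 0.60).

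Pex6, an ATPase that pulls the marked receptor out of the membrane, and Pex26, its membrane anchor, had the lowest ratios of the class. Pex6 had 595 and 367 counts, a log2 ratio of -0.20 (-0.39 to -0.0092), and its interval ended just below a ratio of 1. With upper-quartile scaling that interval contained 1, and the Pex genes with an interval above and below 1 went from 4 and 1 to 6 and 0. Pex26 had 393 and 256 counts and -0.12 (-0.35 to 0.11). The factors that insert membrane proteins pointed the other way. Pex16 had 209 and 219 counts, with a log2 ratio of 0.57 (0.29 to 0.85), and Pex19, the chaperone of membrane proteins, had 643 and 592 and 0.38 (0.22 to 0.54). Pex3, the docking site of Pex19, had 171 and 131 counts and 0.11 (-0.23 to 0.45). Exons of Pex16 share 127 bases with Large2 on the opposite strand, which had 223 and 151 counts, and the strand setting of the counting is not given in the sources used here.

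**Figure D2:**
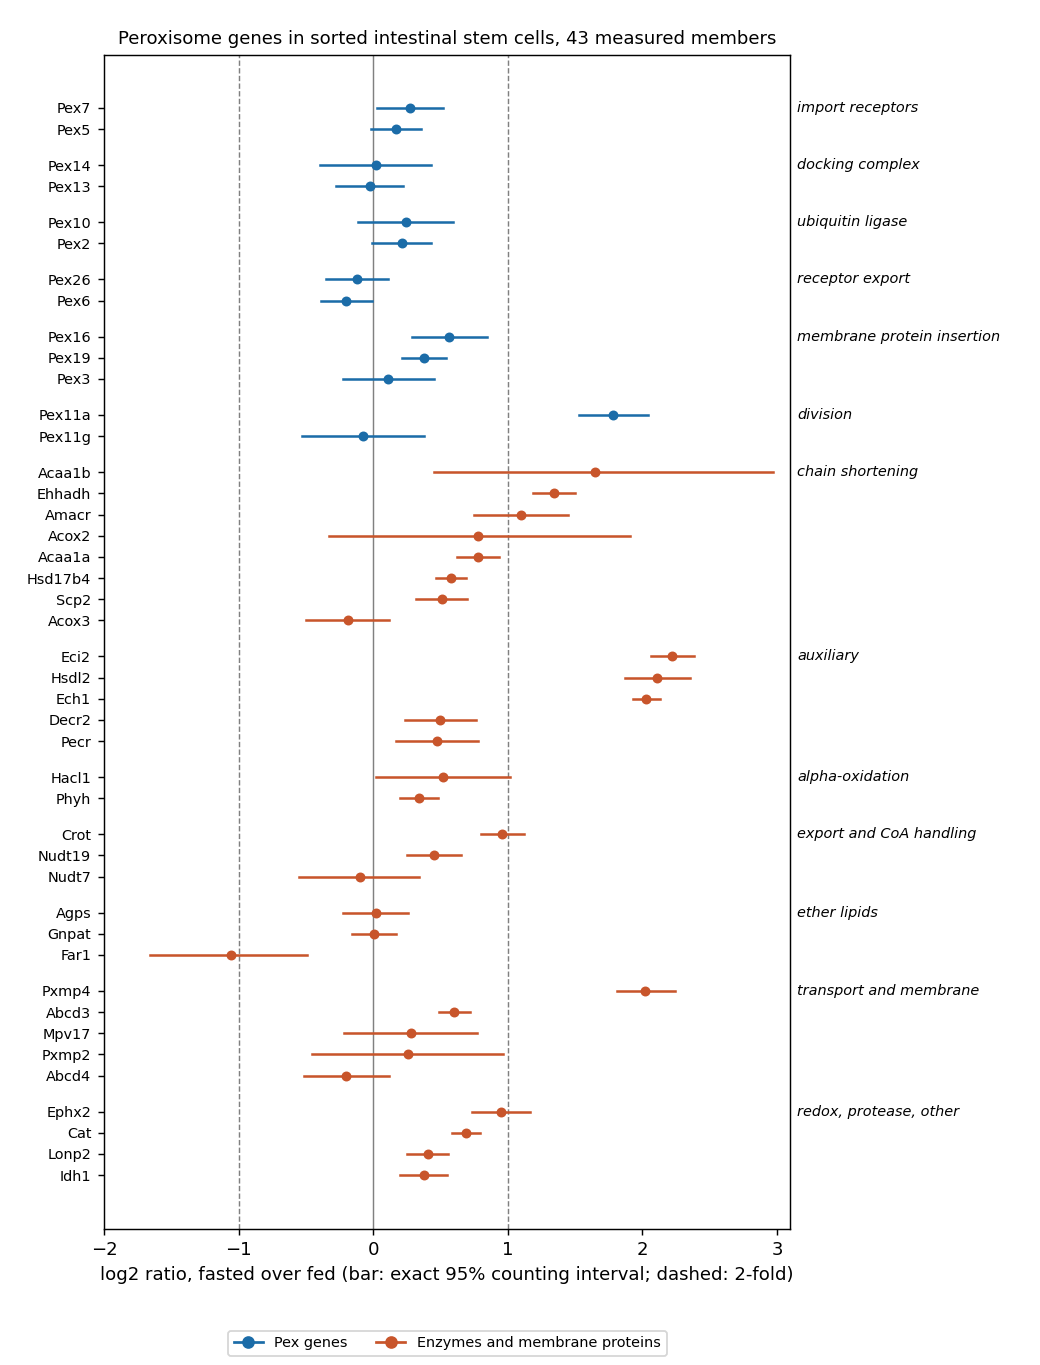
Log2 ratio of fasted over fed (horizontal axis) for each of the 43 measured members, grouped by role, with exact 95% counting intervals as bars and dashed lines at 2-fold. Eci2, Hsdl2, Ech1 and Pxmp4 lie together above 2, Pex11a stands apart from the other Pex genes, and Far1 is the one gene below -1.

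The highest ratios of all members belonged to Eci2, Hsdl2, Ech1 and Pxmp4, each about 4-fold, with intervals that overlapped one another. Eci2 is an isomerase that moves double bonds of unsaturated fatty acyl-CoA into the position that beta-oxidation can use. It lies on chromosome 13 (34977748 to 35027096) and had 431 fed and 1425 fasted counts. Its ratio was 4.67-fold, a log2 ratio of 2.22 (2.07 to 2.38), rank 44 of all measured genes. Ech1, an isomerase of dienoyl-CoA found in peroxisomes and mitochondria (chromosome 7, 28825217 to 28832247), went from 1152 to 3333 counts, 4.09-fold or 2.03 (1.93 to 2.13). Hsdl2, a dehydrogenase-like protein with a lipid-binding sterol carrier domain (chromosome 4, 59581563 to 59618689), went from 195 to 596 counts, 4.32-fold or 2.11 (1.87 to 2.35).

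Pxmp4 encodes a small protein of the peroxisomal membrane whose function is little known (chromosome 2, 154585758 to 154603708). It had 238 fed and 685 fasted counts, 4.06-fold or 2.02 (1.81 to 2.24) on the log2 scale. The other small membrane protein of this kind in the list, Pxmp2, had 39 and 33 counts, with a log2 ratio of 0.26 (-0.46 to 0.96). Pxmp4 and Pxmp2 belong to unrelated families in spite of their names.

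The upstream sequences of Pex11a and of these 4 genes are shown because these 5 had the highest ratios of the measured members. They were thus chosen after the data were seen, and those of Ehhadh, Acaa1b and Amacr, also higher, are not shown. They are taken from RefSeq (GRCm38.p6), 5′ to 3′ on the strand of the gene. Each lies within the 250 bases before the RefSeq start and outside every annotated exon. GGGCGG (the GC box bound by Sp factors, on either strand) is in capitals. The Eci2 stretch precedes a RefSeq start inside the gene span given above, downstream of its annotated 5′ end.
Pex11a, chr7:79743184-79743381, minus strand: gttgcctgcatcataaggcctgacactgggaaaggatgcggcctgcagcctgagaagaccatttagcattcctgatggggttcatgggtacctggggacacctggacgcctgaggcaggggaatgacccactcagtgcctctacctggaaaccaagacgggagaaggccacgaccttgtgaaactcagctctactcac
Eci2, chr13:34994282-34994394, minus strand: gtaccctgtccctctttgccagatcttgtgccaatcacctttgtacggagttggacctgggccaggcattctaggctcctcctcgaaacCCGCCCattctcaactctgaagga
Ech1, chr7:28825088-28825216, plus strand: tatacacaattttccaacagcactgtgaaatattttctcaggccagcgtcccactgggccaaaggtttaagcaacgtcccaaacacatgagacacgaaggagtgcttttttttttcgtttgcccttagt
Hsdl2, chr4:59581313-59581562, plus strand: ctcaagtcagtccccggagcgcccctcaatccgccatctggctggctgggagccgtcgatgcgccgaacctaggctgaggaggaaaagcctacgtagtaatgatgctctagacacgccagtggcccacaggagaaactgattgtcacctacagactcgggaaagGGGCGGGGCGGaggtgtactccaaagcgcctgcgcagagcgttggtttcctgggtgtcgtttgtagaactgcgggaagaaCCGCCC
Pxmp4, chr2:154603709-154603923, minus strand: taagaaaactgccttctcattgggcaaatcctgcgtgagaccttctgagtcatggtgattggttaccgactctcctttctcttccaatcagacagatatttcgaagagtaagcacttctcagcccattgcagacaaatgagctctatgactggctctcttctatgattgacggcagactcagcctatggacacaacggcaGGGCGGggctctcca
The Hsdl2 stretch holds 3 GC boxes, of which 2 overlap, those of Eci2 and Pxmp4 hold 1 each, and those of Pex11a and Ech1 hold 0. A promoter of 300 bases, from 250 before to 50 after the start, was found for 37 of the 45 members. GGGCGG stood in 28 of these 37 (75.7%), in 6 of the 7 higher members with a promoter and in 22 of the 30 others, and in 38.2% of 27025 genes with a promoter entry, coding or not. The 6 include Pex11a and Ech1, whose GC boxes lie in this window but outside the printed stretches. The binding element of PPARs is a direct repeat, searched as 2 copies of AGGTCA with 1 free base between them, with up to 2 mismatches, on both strands. It was matched in 0 of the 7 higher members, in 2 of the 30 others and in 4.40% of all genes. The matches were in Acox2 and in Cat, where AGGTCAGAGAACA lies at chr2:103485345-103485357 on the minus strand, 204 bases before the start. The half-site AGGTCA alone, which the repeat contains in 2 copies, was found in 0 of the 7 higher members, in 4 of the 30 others and in 18.1% of all genes. A match is a description of these windows, and elements farther from the start were not searched. Shares among measured genes alone were not computed for any of these motifs.

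The remaining auxiliary enzymes had smaller ratios. Decr2, the reductase that removes a double bond from dienoyl-CoA, had 239 counts in each library, a log2 ratio of 0.50 (0.23 to 0.76) after scaling. Pecr, a reductase of enoyl-CoA, had 182 and 179 counts and 0.47 (0.17 to 0.78). Both intervals ended well below those of Eci2, Ech1 and Hsdl2, so the 5 auxiliary genes fell into 2 sets, with 3 of them higher.

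The chain-shortening enzymes differed by step of the cycle. Acox2 and Acox3 are oxidases of branched substrates and catalyse the first step. Acox3 had 227 and 141 counts, with a log2 ratio of -0.19 (-0.50 to 0.12), while Acox2 had 14 and 17 counts and 0.78 (-0.33 to 1.91), too few to place. The second and the third step are carried out by Ehhadh and Hsd17b4, bifunctional enzymes of opposite stereochemistry. Ehhadh (chromosome 16, 21761287 to 21787807) went from 540 to 969 counts, 2.53-fold or 1.34 (1.19 to 1.496). Hsd17b4, the more abundant of the pair, went from 1353 to 1430 counts, 1.49-fold or 0.58 (0.47 to 0.69). Their intervals did not overlap, and the ratio of Ehhadh was the larger.

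The last step is a thiolase reaction. Acaa1a had 625 and 758 counts, with a log2 ratio of 0.78 (0.62 to 0.93), and Scp2, which encodes the thiolase for branched chains and a lipid transfer protein, had 462 and 466 counts and 0.51 (0.32 to 0.70). Acaa1b was higher on very few reads, with 9 and 20 counts and 1.65 (0.45 to 2.97). It is a close neighbour and near copy of Acaa1a, and the summed counts of the pair, 634 and 778, gave 0.79 (0.64 to 0.95), which is below 2-fold. Amacr, a racemase that prepares branched acyl-CoA for oxidation, had 117 and 177 counts, 2.14-fold or 1.10 (0.75 to 1.44). Of the 8 chain-shortening genes 3 were thus higher (Ehhadh, Acaa1b and Amacr), 0 were lower, and the median log2 ratio was 0.78.

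Alpha-oxidation removes a single carbon from branched fatty acids such as phytanic acid. Phyh, its hydroxylase, had 864 and 774 counts, with a log2 ratio of 0.34 (0.20 to 0.48), and Hacl1, its lyase, had 70 and 71 counts and 0.52 (0.021 to 1.02). Neither was past 2-fold.

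Crot, which turns shortened acyl-CoA into acylcarnitine for export to mitochondria, lay just under the threshold. It had 540 and 744 counts, 1.95-fold or a log2 ratio of 0.96 (0.80 to 1.12), and passed it after a correction for exon length (1.02). Nudt7 and Nudt19 hydrolyse coenzyme A and its esters. Nudt19 had 419 and 406 counts and 0.45 (0.25 to 0.65), and Nudt7 had 109 and 72 counts and -0.10 (-0.55 to 0.34).

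Ether lipid synthesis was the one role without a higher gene or an interval above 1 among the enzymes. Gnpat and Agps, which attach the acyl and then the alkyl chain, were level. Gnpat had 759 and 540 counts, with a log2 ratio of 0.0067 (-0.16 to 0.17), and Agps had 341 and 245 counts and 0.021 (-0.22 to 0.26). Far1, a reductase that supplies the fatty alcohol (chromosome 7, 113513834 to 113571511), was the only lower member. It had 103 fed and 35 fasted counts, a log2 ratio of -1.06 (-1.66 to -0.49), which lost the 2-fold call after the correction for exon length (-0.96). Its paralog Far2, outside the members, had more reads, 1665 and 836 counts. The log2 ratio of Far2 was -0.50 (-0.62 to -0.38), within 2-fold.

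The transporters of the membrane import acyl-CoA. Abcd3, the half-transporter for branched and dicarboxylic substrates, had 1182 and 1270 counts, 1.52-fold or 0.60 (0.49 to 0.72). Abcd2 had 0 counts in both libraries. A limit set at 3 counts, not taken from an interval, equals 0.429 CPM (fed) and 0.598 CPM (fasted). Abcd4 and Mpv17 are listed with the peroxisome, but their products are known from the lysosome and the inner mitochondrial membrane. Their log2 ratios were -0.20 (-0.52 to 0.12) and 0.28 (-0.21 to 0.77). As neither was past 2-fold, leaving them out could not change the 8 higher members.

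The enzymes of peroxide, redox and protein turnover that were measured had positive log2 ratios, all within 2-fold. Cat, the catalase that removes hydrogen peroxide, had 1475 and 1684 counts, 1.61-fold or 0.69 (0.59 to 0.79). Ephx2, a hydrolase of fatty acid epoxides, had 303 and 414 counts, 1.93-fold or 0.95 (0.73 to 1.17). Lonp2, the protease and chaperone of the matrix, had 731 and 686 counts and 0.41 (0.25 to 0.56), and Idh1, an NADPH source of cytosol and peroxisomes, had 576 and 529 counts and 0.38 (0.20 to 0.55). Hao2, a hydroxy acid oxidase best known from kidney and liver, had 11 and 1 counts, a log2 ratio of -2.96 (-8.39 to -0.18), below the minimum for a measured gene.

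**Figure D3:**
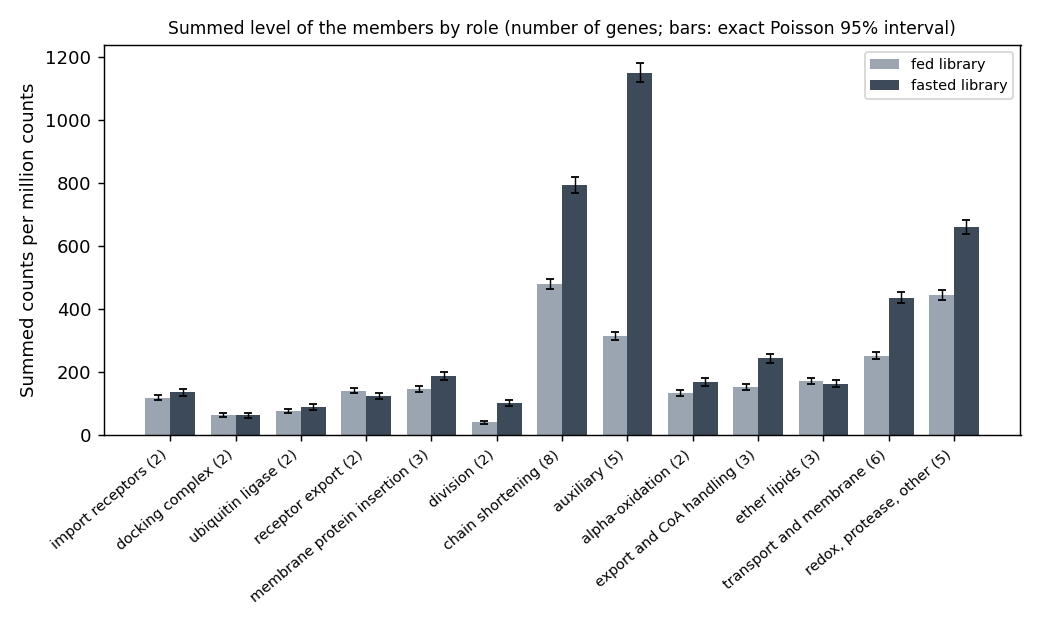
Summed counts per 1000000 counts (vertical axis, from 0) of the members of each role in the fed and fasted library, with exact Poisson 95% intervals for counting error; the number of genes per role stands in parentheses. The auxiliary enzymes go from 315 to 1150 CPM and pass chain shortening, which goes from 479 to 792 CPM, while the receptors, docking, ligase and export factors stay close to their fed level.

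Summed over all members, the level was 2537 CPM (fed) and 4314 CPM (fasted), a log2 ratio of the scaled sums of 0.79 (0.76 to 0.82). The difference was uneven. Ech1 alone made up 28.1% of it, and Eci2, Ech1, Hsdl2 and Pxmp4, a set chosen after their values were seen, made up 51.5%. These 4 genes held 11.4% (10.9 to 11.9) of the members' counts in the fed and 27.9% (27.3 to 28.5) in the fasted library, with exact binomial intervals. All 13 Pex genes contributed 6.24% of the difference, and their share of the members' counts was 23.2% (22.6 to 23.9) in the fed and 16.2% (15.7 to 16.7) in the fasted library.

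The order of the members by level per exon length differed between the libraries. In the fed library Cat stood first at 80.8 counts per kb of exon per 1000000 counts, before Ech1 (72.2), Phyh (65.3) and Hsd17b4 (56.9). In the fasted library Ech1 stood first at 290.7, followed by Cat (128), Hsd17b4 (83.7) and Phyh (81.4). Eci2 had a level of 11.1 in fed and 51.2 in fasted cells, and Hsdl2 had 9.99 and 42.5. Among the Pex genes Pex2 and Pex19 had the highest fed levels, 24.8 and 24.1, and Pex11a rose from 8.10 to 27.5, close to Pex2 (28.3) and Pex19 (30.9) in the fasted library.

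**Figure D4:**
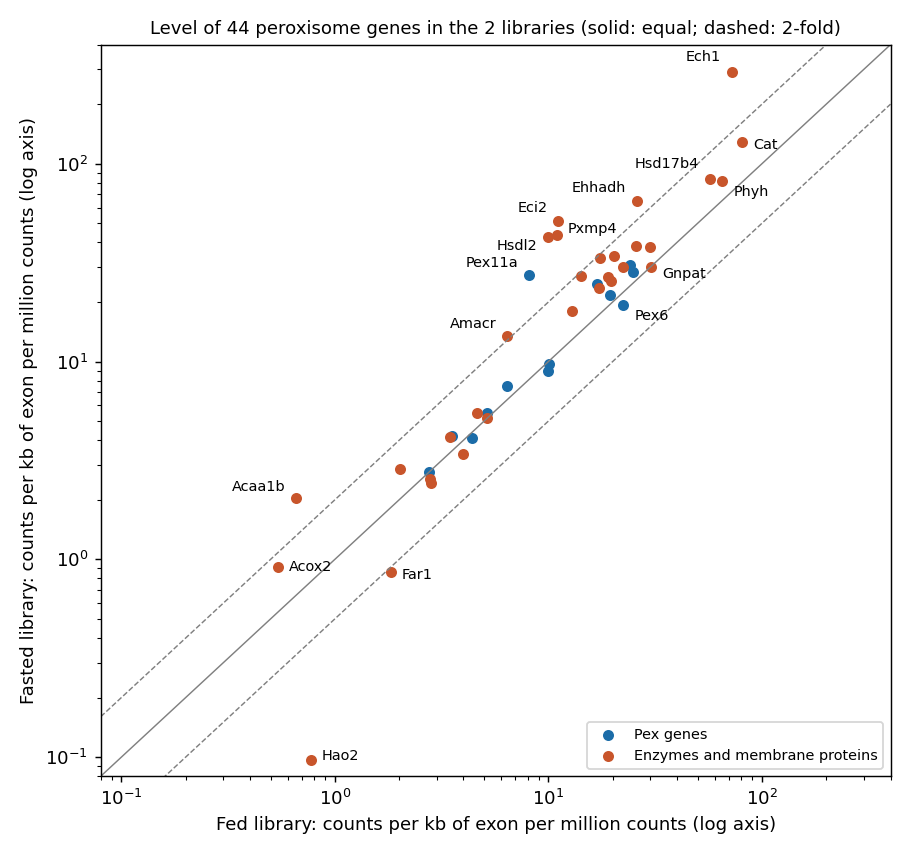
Level of the 44 members with a count, in counts per kb of exon per 1000000 counts, in the fed (horizontal log axis) and fasted (vertical log axis) library; the solid line marks equal and the dashed lines 2-fold levels before size-factor scaling. Ech1 is at 72.2 and 290.7, and Eci2, Pxmp4, Hsdl2 and Pex11a leave the bulk of genes of like fed level.

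A second list held 43 further genes whose products are found in or at the peroxisome, some of them also elsewhere. Of 36 measured, 3 were higher and 0 were lower, against 2.51% and 1.91% of all measured genes. For 12 of them the interval lay above a ratio of 1 and for 4 below it, against 16.7% and 19.2%. Their median log2 ratio was 0.11. The higher ones were Mlycd, a decarboxylase of malonyl-CoA found in several compartments (166 and 284 counts, 1.27, 0.99 to 1.56), Uox, the urate oxidase (12 and 26 counts, 1.61, 0.58 to 2.73), and the thioesterase gene Acot4 (22 and 77 counts, 2.31, 1.61 to 3.06). Acot4 has close relatives beside it, so its reads may be shared.

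The members were also set beside related programmes of the same libraries. Of 12 measured members that are widely used PPAR target genes, 5 were higher and 12 had a positive ratio, with a median of 0.95. Of the other 31 members 3 were higher (Hsdl2, Pxmp4 and Amacr), 1 was lower, and the median was 0.26. Of 24 measured PPAR target genes outside the members 19 were higher, with a median of 1.89. Of 17 genes of mitochondrial beta-oxidation 11 were higher and 0 were lower, the median being 1.34. Both medians were above that of the peroxisomal enzyme and membrane protein genes, and the difference between these lists was not tested. The PPAR target list and the mitochondrial list share genes, so their medians are not separate observations.

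Markers of another cell type moved in the same direction. Of 24 absorptive enterocyte markers, all measured, 15 were higher and 24 had a positive ratio, with a median log2 ratio of 1.07. Their summed level was 2425 CPM (fed) and 4753 CPM (fasted), and no marker was at 0 in either. The enterocyte list shares genes with the list of PPAR target genes outside the members. Of 14 stem cell markers 13 had a negative ratio, 11 had an interval below 1 and 0 were past 2-fold. Among 11 Paneth cell markers 9 had a negative ratio, 1 was higher and 1 was lower. Among 9 cycling markers 6 had an interval below 1 and 0 were past 2-fold. The 10 enteroendocrine and 7 tuft cell markers had 6 and 3 measured, with 0 higher or lower. Of 10 goblet cell markers 5 were higher. Of 8 markers of stroma and endothelium 0 were measured, and of 8 immune markers 4 were measured, 0 were higher and 1 was lower. The part of the enterocyte and goblet signal in the ratios of the peroxisome genes was not tested. In bulk RNA, more cells of a type in the sort and more RNA per cell cannot be told apart.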

How the data were processed

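RNA was sequenced from 1 fed and 1 fasted library of sorted stem cells. The authors counted reads per Ensembl gene, and the deposited counts are whole numbers without normalisation. FastQC, STAR, HTSeq and DESeq and the builds GRCm38 and mm10 are named, without versions or roles, per the submitters' processing notes. A deposited table of normalised signal equals these counts divided by 1.19 (fed) and 0.842 (fasted), with 100% of values within 0.01 of that quotient. These divisors are the same as the size factors used here.

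Symbols, exon lengths and coordinates came from GENCODE M21 (GRCm38). Of 45706 gene IDs 45143 had a symbol. Counts were divided by median-of-ratios factors, and ratios were given exact 95% intervals from the fasted share of a gene's counts (scipy 1.17.1). The naming rule took all 45 members, and other genes of the organelle past 2-fold. Lgr5 and Olfm4 are named as markers of the sorted cells, Large2 for its overlap with Pex16 and Far2 as a paralog of Far1. The receptor gene Ppara was taken out of the second list after the data were seen. The members and lists were chosen with earlier results of these data known. Alternatives were TMM (edgeR 4.0.16), total and upper-quartile scaling, the deposited normalised values, an exon length correction (running median over 1000 genes), no filter or a minimum of 5 CPM, thresholds of 1.5-fold, 3-fold or the interval alone, and shorter member lists. The GC box and half-site searches were added after the data were seen. Protein targeting signals were not analysed here.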

Additional observations from a re-analysis of the deposited data

How the results depend on the processing

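TMM, total-count and upper-quartile scaling, the deposited normalised values, a minimum of 5 CPM and the list without Abcd4 and Mpv17 or without Acaa1b kept each number of higher and lower members within 1.5 times and each median inside the counting interval of its middle member. Of single members, TMM, total-count and upper-quartile scaling changed no 2-fold call. The deposited values rest on the same factors as the main setting, so their agreement was fixed in advance. Abcd4 and Mpv17 were neither higher nor lower, so leaving them out could change only the medians. By the interval alone, upper-quartile scaling gave 27 members above and 1 below a ratio of 1, in place of 25 and 2, the change lying in the Pex genes (6 and 0 in place of 4 and 1). The exon length correction gave 0 lower members (0 among the enzymes), as Far1 went to -0.96, and made Crot higher at 1.02. Without a low-count filter 2 members were lower (2 among the enzymes), Hao2 being added. At 1.5-fold 13 members were higher, 12 of them enzymes or membrane proteins, and at 3-fold 0 were lower (0 enzymes). With the interval alone as the rule, 25 members were higher and 2 lower, 4 and 1 among the Pex genes and 21 higher among the enzymes. Without the common PPAR target genes 3 members were higher, 3 enzymes or membrane proteins and 0 Pex genes. Summed counts gave log2 ratios of 0.79 for all members and 0.91 for the enzymes and membrane proteins, which abundant genes dominate.

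No paired analysis was possible because each group has 1 library. For the same reason no replicate was left out. The shallower fasted library and low counts limit Acox2, Acaa1b, Hao2, Pxmp2 and Far1, the only lower member, whose intervals span more than 2-fold.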
